A study of Mus musculus with 67 samples.

Results

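The mouse gene tables list RNAs that carry the name of another gene followed by the ending os, for opposite strand, and that are read from the strand opposite to that gene. Of 291 gene names that end in os, os1, os2 or os3 and whose stem is also a listed gene, 97 reached a TPM of 0.5 in 3 or more of 14 RNA-seq libraries, and these 97 are described here with their 93 partner genes, out of 46983 gene IDs. TPM, the transcript abundance unit of the tables, is the level of a gene per length as a share of its library. The TPM values of these same libraries chose the members, and 172 of the other 194 names did not reach 0.5 in any library. Most members are long noncoding RNAs (lncRNAs). RefSeq, the NCBI gene catalogue, lists 68 of the 97 as lncRNA and 22 have no RefSeq entry, but it lists 5 (Ccpg1os, Cebpzos, Slc7a6os, Toporsos and Wdr83os) as protein-coding, so that the 97 are called opposite-strand RNAs below.

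The RNA came from mouse forelimb buds on a Swiss Webster background, in 4 groups. The pre-HH groups were whole buds at E9.25 (21–23 somites), WT (n = 3) and Gli3-/- (n = 4), and the post-HH groups were the anterior parts of buds at E10.5 (32–35 somites), WT (n = 4) and Gli3-/- (n = 3). Gli3-/- embryos carry the Gli3Xt-J allele, a deletion of part of the gene in every cell of the embryo, not a deletion in the limb alone. Each library pooled buds of several embryos, 4 pairs of buds per E9.25 library and 2 per E10.5 library by the labels, and libraries are the replicates. A comparison of the stages also compares whole buds with anterior buds, so that stage and bud part cannot be told apart.

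In Hedgehog (HH) signaling, a secreted ligand such as SHH relieves the inhibition of SMO by PTCH1, and GLI transcription factors change from repressors to activators. GLI3 serves mainly as a repressor in the anterior limb bud, where SHH does not reach. Opposite-strand lncRNAs often start beside the promoter of a developmental transcription factor, and the HOX clusters hold several of them. Such RNAs may be by-products of a shared promoter, carriers of small RNAs, or regulators of the neighbouring gene, and a measurement of their level alone does not separate these roles.

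Depth was estimated at 38.1 to 56.8 M reads per library, at which 20.7 to 29.3 reads per kilobase make up a TPM of 1. Gli3 itself had a TPM of 44.2, 15.8 and 44.6 in E9.25 WT and of 14.3, 20.6, 20.8 and 19.1 in E9.25 Gli3-/-. The library labelled E9.25 WT replicate 2 therefore lay within the Gli3-/- range, and of 57 opposite-strand RNAs tested for stage it held the lowest of the 3 WT values for 38 (66.7%), against 54.8% of all 15444 genes tested. The main counts that use this library are given with and without it, and so are the values of most RNAs described for stage. At E10.5, Gli3 had a TPM of 73.4 to 89.7 in WT and of 38.7 to 40.9 in Gli3-/-. Among markers of limb mesenchyme, Prrx1 had a TPM of at least 70.5 in each library. The 8 markers of flank and lateral plate mesoderm summed to 26.4 to 53.6 TPM in E9.25 WT and to 72.2 to 160.5 TPM in E9.25 Gli3-/-, without overlap.

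The opposite-strand RNAs were mostly low. The median over the 97 members of the median TPM in 14 libraries was 0.972, against 19.0 for the partners and 9.14 for all 18705 genes that passed the same TPM rule. Only 12 members had a median TPM of at least 10, and 16 members lay above their partner. In position, 34 overlapped the partner at the 5′ ends, 32 lay inside the partner's span, 18 were divergent without overlap, 6 overlapped at the 3′ ends, 4 were convergent without overlap, and 3 contained the partner. In 38 pairs (39.2%) the annotated starts lay within 1000 bases of each other. Where spans overlap, reads from the RNA and from the partner could be told apart only by strand. Of the members, 69 overlap a partner that reached a TPM of 1 in a library. The library kit that the study names is the version that does not mark strand, so that reads over shared exons cannot be told apart and the values of overlapping pairs are uncertain to that extent. In all, 24 members overlap a further gene that reached a TPM of 1, and for 8 members such a gene is on their own strand.

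**Figure D1:**
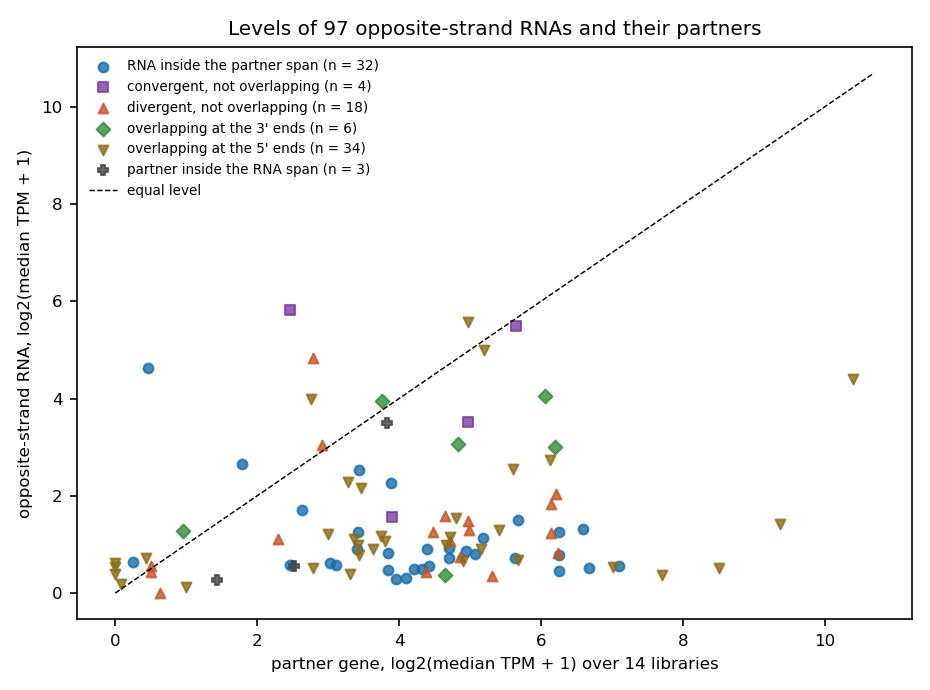
Levels of the 97 opposite-strand RNAs (vertical axis) and their partner genes (horizontal axis), each as log2 of the median TPM over 14 libraries plus 1. Marker shape and colour give the arrangement of the pair, and 16 members lie above the dashed line of equal level.

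Of the 8 members of highest level, Hoxa11os was called for Gli3 loss at E10.5 and the other 7 were not. Epb41l4aos, on chromosome 18, had the highest median TPM (55.6), although its partner Epb41l4a, which encodes a FERM-domain protein, had a median TPM of 4.50. Wdr83os and Slc7a6os, both listed as protein-coding, followed with 46.8 and 43.8. Rab26os had a TPM of 18.6 to 33.1 in the 14 libraries while Rab26, a small GTPase gene, stayed at or below 0.889. The span of Rab26os holds the small nucleolar RNA gene Snord60 on the same strand, and that of Epb41l4aos holds Gm23639 on the same strand, so that reads of these could have been counted for the longer RNA. Brip1os, divergent from Brip1 with starts 177 bases apart, had a median TPM of 27.4 against 5.93 for Brip1, which encodes a DNA repair helicase. Igf2os had a median TPM of 20.1 beside Igf2, the gene of insulin-like growth factor 2, at 1347.

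Which opposite-strand RNAs depend on Gli3 once HH signaling is active was asked in anterior E10.5 buds. Of the 61 members that reached a TPM of 1 in 3 or more of the 7 libraries, 3 were upregulated in Gli3-/- (Hoxa11os, Vax2os and Foxd2os) and 5 were downregulated (Irx3os, Hoxb5os, Abhd11os, Cep83os and Tmem147os). These 8 were 13.1% of the members tested, against 4.77% of all 15654 genes tested, 1.84% up and 2.93% down. The median log2 fold change was -0.10 over the 61 members and -0.02 over all genes. Calls were made by limma's moderated test on log2(TPM + 1) with an adjusted p under 0.05. Fold changes on this scale understate the change of low RNAs. Foxd2os and Vax2os reached a TPM of 1 only in the 3 Gli3-/- libraries, so that their passing the filter and their direction are not independent, and without any of those libraries they were not tested. Leaving out the members that had passed the TPM rule at 1 stage only, 6 of 56 (10.7%) were called. This count still holds Irx3os, which passed the filter of this test only through the WT libraries. Without E10.5 Gli3-/- replicate 2 or replicate 3, 5 members were called.

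Hoxa11os lies on chr6:52244393-52249799 on the plus strand and overlaps the 5′ end of Hoxa11, with starts 1417 bases apart. HOXA11 patterns the middle segment of the limb, and Hoxa11os is an antisense transcript of the same locus. In E10.5 WT, Hoxa11os had a TPM of 56.2, 57.5, 65.1 and 62.6, and in E10.5 Gli3-/- of 116, 163 and 155. The groups did not overlap, and the log2 fold change was 1.24 ± 0.12 (SE, adjusted p = 0.000643). Hoxa11 rose from 67.2 ± 4.82 (SD, n = 4) to 118 ± 7.03 TPM (SD, n = 3), by 0.80 ± 0.08 on the log2 scale (adjusted p = 0.000643). The ratio of Hoxa11os to Hoxa11 did not pass the test of unequal change. At E9.25 the order was the other way around: Hoxa11os had a TPM of 1.50, 1.77 and 5.55 in WT and of 0.652, 0.720, 0.0337 and 0.775 in Gli3-/-, a log2 difference of -1.24 ± 0.35 that missed the threshold (adjusted p = 0.207). All E9.25 Gli3-/- values lay below all WT values there. The interaction of stage and genotype was 2.47 ± 0.40 for Hoxa11os (adjusted p = 0.00449) and 2.51 ± 0.40 for Hoxa11 (adjusted p = 0.00433). The 3 same-strand RNA genes inside its span (Gm27492, Gm27817 and Gm27454) could share reads with Hoxa11os.

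The base sequence at the RefSeq start of Hoxa11os, at chr6:52244993-52245292 on the plus strand of GRCm38.p6, is shown because Hoxa11os had the largest stage change of the members and because this start lies inside Hoxa11. It runs from 250 bases before to 50 bases after that start, which is 850 bases from the start given in the tables. Capitals mark CpG dinucleotides, of which this window holds 41, against a median of 9 in the 81 start windows of 61 members and of 7 in all 32851 windows of the table. The letters GACCACCCA, the core of a GLI binding motif, were found on neither strand in any of the 81 member windows and in 83 (0.253%) of all windows.

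Hoxa11os: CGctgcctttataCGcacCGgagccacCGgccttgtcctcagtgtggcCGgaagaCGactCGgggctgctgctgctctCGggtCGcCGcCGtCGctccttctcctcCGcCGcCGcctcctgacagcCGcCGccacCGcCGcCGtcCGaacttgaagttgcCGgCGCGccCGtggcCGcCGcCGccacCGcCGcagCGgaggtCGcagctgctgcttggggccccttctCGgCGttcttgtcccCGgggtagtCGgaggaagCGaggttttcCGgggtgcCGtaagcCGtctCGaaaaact

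Vax2os, on chr6:83692806-83712201 on the minus strand, starts inside Vax2, a homeobox gene best known for ventral eye patterning. It was listed at 0 in all 7 E9.25 libraries. At E10.5 it had a TPM of 0.655, 0.192, 0.433 and 0.223 in WT and of 1.83, 1.92 and 2.71 in Gli3-/-. The groups did not overlap, with a log2 fold change of 1.20 ± 0.18 (adjusted p = 0.00556). Vax2 rose with it, from 2.61 ± 0.720 to 11.4 ± 2.12 TPM (SD, n = 4 and 3), by 1.79 ± 0.18 (adjusted p = 0.000806).

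Foxd2os, divergent from the forkhead gene Foxd2 with starts 384 bases apart, had a TPM of 0.563, 0.722, 0.316 and 0.458 in E10.5 WT and of 1.75, 1.39 and 1.93 in E10.5 Gli3-/-. It was upregulated by 0.83 ± 0.16 (adjusted p = 0.0174). Foxd2 had a TPM of 0.428 to 1.04 and of 1.46 to 2.10 in the same groups, and its log2 difference of 0.65 ± 0.17 missed the threshold (adjusted p = 0.0629). Both members of this pair were low, near a TPM of 1.

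Irx3os, on chr8:91800415-91807539 on the plus strand, overlaps the 5′ end of Irx3, an Iroquois homeobox gene of the anterior and proximal limb bud. Its TPM was 2.78, 1.66, 2.16 and 2.40 in E10.5 WT and 0.344, 0.0738 and 0 in E10.5 Gli3-/-. Every Gli3-/- value lay below every WT value, and the log2 fold change was -1.51 ± 0.17 (adjusted p = 0.00167). At E10.5, Irx3os reached a TPM of 1 in the WT libraries alone, so that its passing the filter and its direction are not independent. Irx3 fell from 58.7 ± 9.35 to 6.83 ± 4.62 TPM (SD, n = 4 and 3), by 3.12 ± 0.37 on the log2 scale (adjusted p = 0.00193). On this scale Irx3 fell by more than Irx3os, with a log2 ratio difference of 1.61 ± 0.33 (adjusted p = 0.0279). With a pseudocount of 0.1 in place of 1 that difference was -0.20 (adjusted p = 0.680), so that the order of the changes in this pair depends on the pseudocount. The call was also lost without any of the 4 WT libraries or without Gli3-/- replicate 2 (adjusted p = 0.0514 to 0.0642). At E9.25 neither differed, and the interaction was -1.66 ± 0.32 for Irx3os (adjusted p = 0.0152) and -3.39 ± 0.46 for Irx3 (adjusted p = 0.00151).

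Hoxb5os, on chr11:96291024-96306910 on the minus strand, contains the span of Hoxb5 and overlaps Hoxb6. It had a TPM of 5.75, 4.50, 4.63 and 3.93 in E10.5 WT and of 2.59, 0.701 and 1.35 in E10.5 Gli3-/-, a log2 fold change of -1.22 ± 0.23 (adjusted p = 0.0195). Hoxb5 had a TPM of 4.31 to 11.7 in WT and of 0.508 to 2.67 in Gli3-/- (-1.92 ± 0.35, adjusted p = 0.0165). Both fell without overlap of the groups. The call of Hoxb5os was lost without E10.5 WT replicate 1 (adjusted p = 0.0545) and without E10.5 Gli3-/- replicate 3 (adjusted p = 0.0765).

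In the other 3 downregulated members the partner was not called. Abhd11os, on chr5:135012114-135013253 on the minus strand, overlaps at its 3′ end with that of Abhd11, a gene of a mitochondrial hydrolase. Its TPM was 5.87, 5.73, 7.40 and 4.50 in E10.5 WT and 2.47, 1.53 and 3.24 in E10.5 Gli3-/- (log2 fold change -1.02 ± 0.20, adjusted p = 0.0208), while Abhd11 had -0.42 ± 0.11 (adjusted p = 0.0644). This call was lost without E10.5 WT replicate 1, Gli3-/- replicate 1 or Gli3-/- replicate 2 (adjusted p = 0.0547 to 0.0588).

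Cep83os, on chr10:94673493-94688613 on the minus strand, is divergent from Cep83, which encodes a centriole protein needed for ciliary docking, with starts 177 bases apart. It had a TPM of 4.93, 3.64, 5.14 and 4.49 in E10.5 WT and of 1.96, 1.61 and 1.95 in E10.5 Gli3-/-, and fell by 0.96 ± 0.14 on the log2 scale (adjusted p = 0.00497). Cep83 had a TPM of 30.6 ± 5.37 in WT and of 33.2 ± 3.95 in Gli3-/- (SD, n = 4 and 3), a log2 difference of 0.12 ± 0.14 (adjusted p = 0.694). The ratio of Cep83os to Cep83 fell by 1.08 ± 0.21 (adjusted p = 0.0240). The call of the ratio was lost without E10.5 WT replicate 1 (adjusted p = 0.0585) and without each of the 3 Gli3-/- libraries (adjusted p = 0.0648 to 0.0908).

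Tmem147os, on chr7:30729579-30745929 on the plus strand, starts 45 bases from Tmem147, the gene of a membrane protein of the endoplasmic reticulum. Its TPM was 8.73, 6.27, 7.59 and 8.09 in E10.5 WT and 4.20, 3.10 and 3.35 in E10.5 Gli3-/- (log2 fold change -0.93 ± 0.14, adjusted p = 0.00600). Tmem147 stayed between 68.1 and 75.2 TPM in these 7 libraries, with a log2 difference of -0.04 ± 0.06, and the ratio fell by 0.89 ± 0.14 (adjusted p = 0.0114). Tmem147os overlaps Sbsn and Gm26935 on its own strand and Gapdhs on the other, whose reads could have entered its value.

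**Figure D2:**
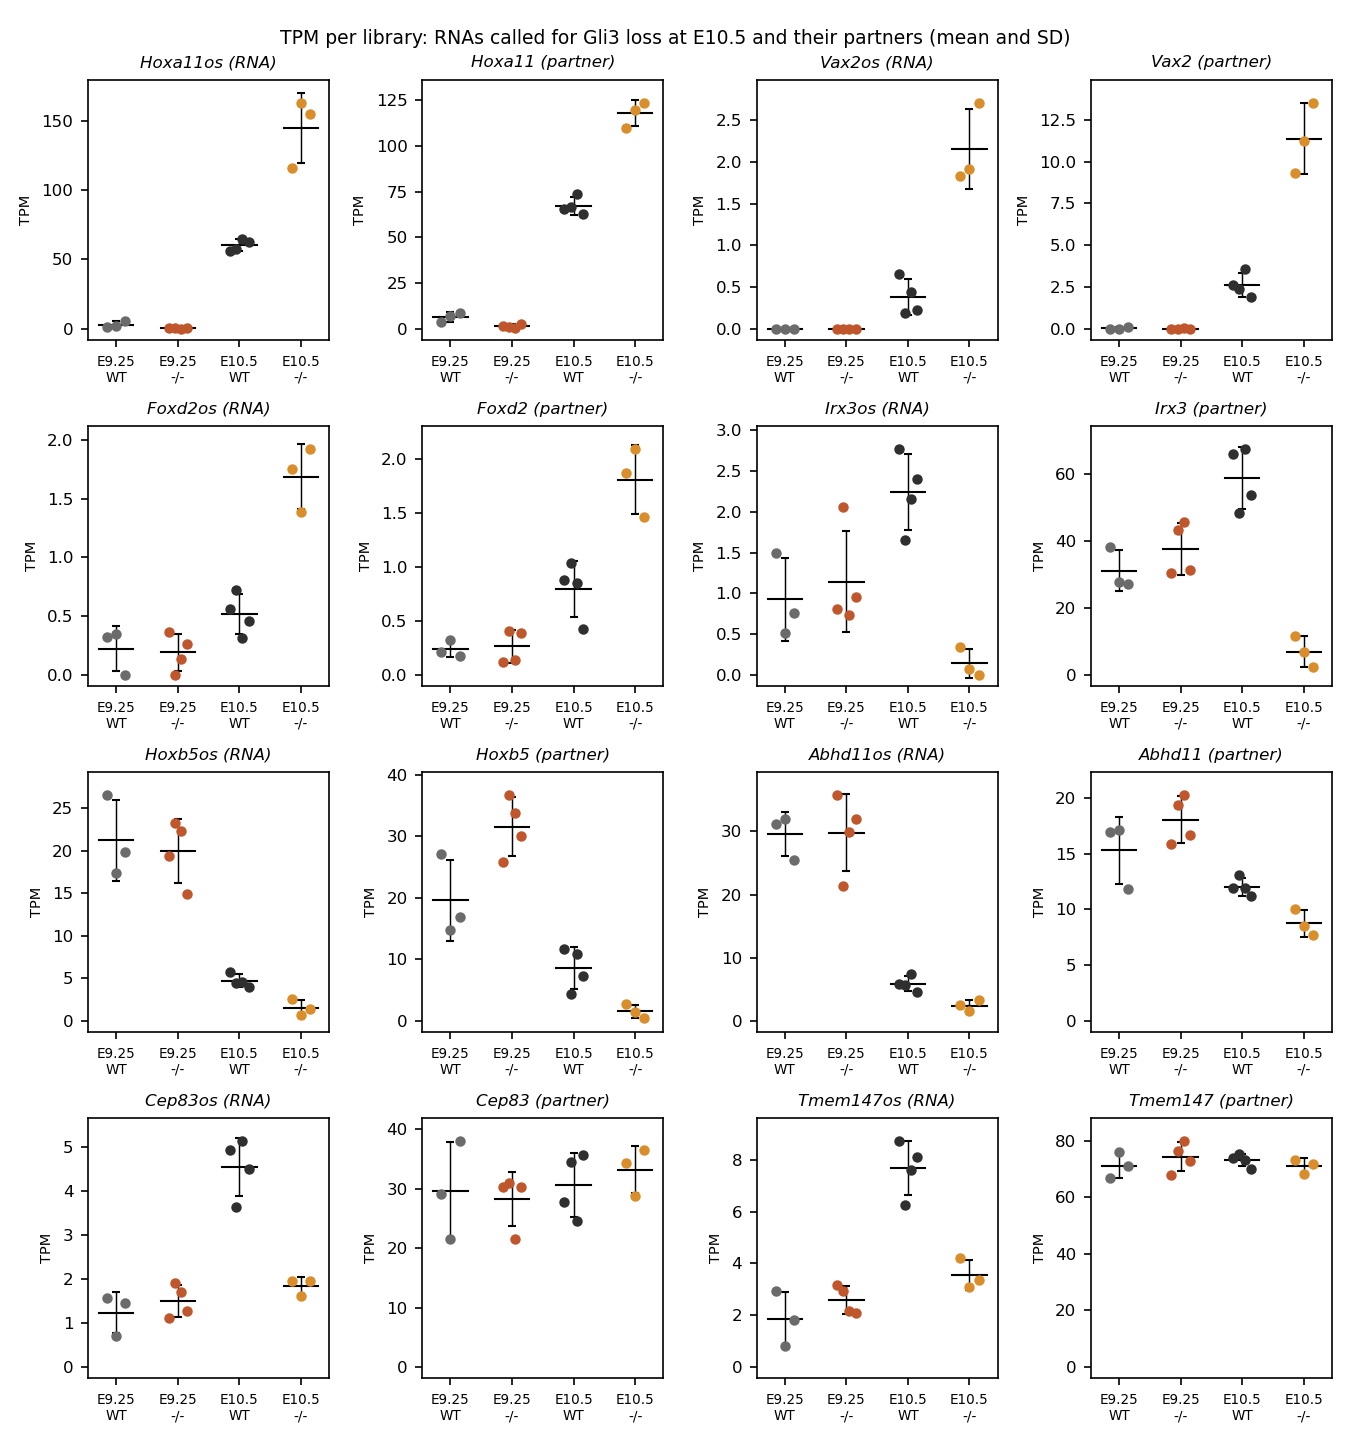
TPM of the 8 opposite-strand RNAs called for Gli3 loss at E10.5 and of their partners, in each of the 14 libraries (points), with the mean (line) and SD (error bar) of each group. In E10.5 buds the Gli3-/- points of Hoxa11os, Vax2os and Foxd2os lie above all WT points and those of the other 5 RNAs lie below.

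The reverse case was Hoxb3. Hoxb3 fell from 25.6 ± 4.74 to 5.57 ± 1.74 TPM (SD, n = 4 and 3), by 2.04 ± 0.21 on the log2 scale (adjusted p = 0.000823). Hoxb3os, which overlaps its 3′ end and also Hoxb2, had a TPM of 5.23, 3.05, 1.86 and 5.83 in WT and of 4.15, 3.62 and 2.80 in Gli3-/-, and the Gli3-/- values lay within the WT range. The ratio of Hoxb3os to Hoxb3 rose by 1.97 ± 0.30 (adjusted p = 0.00958). For Hoxd3os1 the log2 ratio to Hoxd3 rose by 0.60 ± 0.14 (adjusted p = 0.0444), with Hoxd3os1 at 14.1 ± 1.93 and 14.1 ± 1.61 TPM and Hoxd3 at 3.95 ± 1.03 and 2.24 ± 0.323 TPM (SD, n = 4 and 3). That call was lost without any of the 3 Gli3-/- libraries or without WT replicate 1, 2 or 3 (adjusted p = 0.0788 to 0.138). Hoxd3os1 also overlaps Hoxd4 and Hoxd8, whose reads could have entered its value. Of 60 member pairs tested for a change of the ratio, 5 were called, against 5.79% of all 5422 opposite-strand pairs tested.

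Of the partners, 10 of 85 tested (11.8%) were called, 5 in each direction, beside 4.77% of all genes. Where both the RNA and the partner were called, which held for 4 pairs, the direction was the same, and this was also so in all 72 opposite-strand pairs of the tables with both genes called. The spans of these 4 member pairs overlap, and reads over shared exons cannot be told apart. Their shared direction is uncertain to that extent. Among 171 limb and trunk patterning transcription factors, which include the partners of 14 members, 123 were tested and 63 (51.2%) were called, 18 up and 45 down, beside 1.84% of all genes up and 2.93% down. The 6 limb mesenchyme markers summed to 565 to 695 TPM in E10.5 WT and to 407 to 434 TPM in E10.5 Gli3-/-, and the 8 surface ectoderm markers to 218 to 286 and to 334 to 378 TPM. Both sums moved with genotype without overlap, but not every gene in them did. Of the limb mesenchyme markers, Meis1, Meis2, Msx1 and Prrx1 fell, Fgf10 rose by 1.05 and Tbx5 was not called (0.13). Of the surface ectoderm markers, Fgf8 rose by 1.36 and the other 7 were not called, with log2 differences of -0.38 to 0.51. The part of these markers in the changes of the RNAs was not tested. In such bulk samples, fewer cells of a type and less RNA per cell cannot be told apart.

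**Figure D3:**
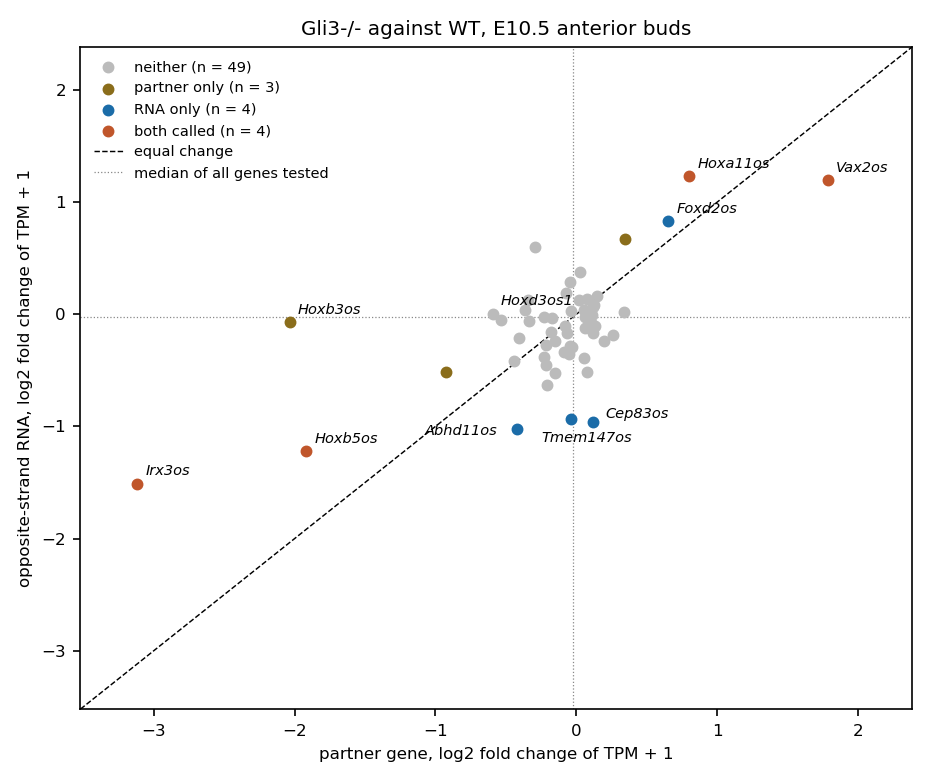
Log2 fold change of TPM plus 1 in Gli3-/- against WT at E10.5 for 60 opposite-strand RNAs (vertical axis) and their partners (horizontal axis), coloured by which of the pair was called. The 4 pairs with both called keep 1 direction, Cep83os and Tmem147os lie low at a partner change near 0, and Hoxb3os lies near 0 at a partner change of -2.04.

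Before HH signaling, at E9.25, none of the 47 members tested was called by limma for Gli3 loss, against 0.136% of 14760 genes (0.108% up and 0.0271% down), and 12 had an unadjusted p under 0.05. Of the 81 partners tested, 28 had an unadjusted p under 0.05. Without the library with the label E9.25 WT replicate 2, no member was called either and 5 had an unadjusted p under 0.05. The share of all genes under that unadjusted threshold was not counted, so that these counts cannot show an excess among the members. The median log2 difference was 0.26 over the members and 0.23 over all genes. Differences in single members reached sizes seen at E10.5. Hoxd3os1 had a TPM of 19.6, 25.8 and 27.1 in WT and of 13.6, 17.0, 9.31 and 12.8 in Gli3-/- (log2 difference -0.84 ± 0.21, adjusted p = 0.178). All WT values lay above all Gli3-/- values there, whereas Hoxd3 had 6.51 to 11.0 TPM in WT and 12.4 to 18.8 TPM in Gli3-/- (0.80 ± 0.22, adjusted p = 0.206), so that the pair lay in opposite order without passing the test. Reads of Hoxd4 and Hoxd8, which Hoxd3os1 also overlaps, could have entered its value.

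Lhx1os, divergent from the LIM homeobox gene Lhx1 with starts 125 bases apart, was seen at E9.25 alone. Its TPM was 1.14, 1.88 and 0 in WT and 3.03, 2.65, 4.39 and 2.29 in Gli3-/-, and it was listed at 0 in all 7 E10.5 libraries. The E9.25 log2 difference of 1.13 ± 0.34 did not pass (adjusted p = 0.217), nor did that of Lhx1, at 1.05 to 2.70 and 4.31 to 8.36 TPM (1.50 ± 0.28, adjusted p = 0.0800). Of the 8 flank markers, 3 were called up in the same Gli3-/- libraries (Foxf1, Gata4 and Tcf21, by 1.53 to 3.68), and Foxf1 had a median TPM of 0.495 in WT and of 26.3 in Gli3-/-. The other 5 were not called, with log2 differences of -0.35 (Tbx18) to 1.29 (Gata6). All 8 flank markers were detected in both groups, and their part in the Lhx1os values was not tested.

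Whether Gli3 loss acted differently at the 2 stages was tested as the interaction over all 14 libraries. Of 71 members, 5 were called (7.04%), against 2.13% of 16368 genes (0.477% higher and 1.65% lower). Leaving out the members that had passed the TPM rule at 1 stage only, 4 of 65 (6.15%) were called, 1 higher and 3 lower. Hoxa11os and Vax2os had a higher effect at E10.5 than at E9.25, and Irx3os, Cep83os and Tmem147os had a lower one. The interaction was -1.13 ± 0.25 for Cep83os (adjusted p = 0.0310) and -1.31 ± 0.31 for Tmem147os (adjusted p = 0.0449). Both calls were lost without E9.25 WT replicate 2, at -0.95 (adjusted p = 0.0656) and -1.02 (adjusted p = 0.0697). Leaving out each of the 14 libraries in turn, the call was lost in 9 cases for Cep83os (adjusted p up to 0.0800) and in 11 for Tmem147os (adjusted p up to 0.129). The call of Irx3os was lost without E10.5 Gli3-/- replicate 3 (-1.57, adjusted p = 0.0555), where 1 member was called in all. Without E9.25 WT replicate 2, the interactions of Hoxa11os, Irx3os and Vax2os were 2.66, -1.50 and 1.20 and stayed called (adjusted p = 0.00435, 0.0409 and 0.0273). For Vax2os, at 0 in each E9.25 library, the interaction equals its E10.5 effect. It passed the filter only through the E10.5 Gli3-/- libraries, so that its being tested and its direction are not independent. Without any of those libraries it was not tested.

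Between the stages, the opposite-strand RNAs changed about as often as other genes. In WT, 31 of 57 members tested (54.4%) were called, against 48.7% of 15444 genes (38.1% higher and 10.6% lower), with 25 higher and 6 lower at E10.5. The median log2 difference was 0.59 over the members and 0.34 over all genes, and 35 of the 57 lay above the median gene. With quantile normalization, which removes that shift, the split was 11 higher and 10 lower. Without the library with the label E9.25 WT replicate 2, 28 were called, 21 higher and 7 lower. Of the 31, Emx2os and Mecomos had passed the TPM rule in E10.5 libraries alone, so that their direction follows from the choice, and 29 of 55 were called without such members. Among these 29, Far1os, Junos, Kank4os, Med9os, Nckap5los, Prox2os and Tmem132cos passed the filter of the test only through E10.5 libraries. Their mean log2(TPM + 1) in E9.25 WT was 0.13 to 0.77. For these too, being tested and rising are not independent, and the split of 25 higher and 6 lower includes them. By arrangement, the RNAs called were 12 of 14 inside the partner's span, 6 of 12 divergent, 7 of 21 overlapping at the 5′ ends, 3 of 5 overlapping at the 3′ ends, 2 of 4 convergent and 1 of 1 containing the partner, and the differences between these classes were not tested.

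Dnm3os rose the most after Hoxa11os. Dnm3os, on chr1:162217623-162225550 on the plus strand, lies inside Dnm3, a dynamin gene, and is the precursor of microRNAs that are known from skeletal development. Its TPM was 2.68, 0.746 and 2.49 in E9.25 WT and 14.5, 15.7, 11.3 and 27.8 in E10.5 WT, a log2 change of 2.62 ± 0.34 (adjusted p = 0.000738). In Gli3-/- it went from 1.57, 3.02, 0.671 and 2.10 to 11.1, 12.6 and 7.64 TPM (2.06 ± 0.28, adjusted p = 0.000534). All E10.5 values lay above all E9.25 values in both genotypes, and the partner Dnm3 rose as well (1.88 ± 0.23 in WT, adjusted p = 0.000514).

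A pair of microRNA hairpins lies inside Dnm3os on its own strand, Mir199a-2 at chr1:162217814-162217923 and Mir214 at chr1:162223368-162223477. No other member held a microRNA gene of the RefSeq table on its own strand. Their mature sequences are given because they are what a cell makes from this RNA, with the seed (bases 2 to 8) in capitals. Mature microRNAs were not measured in these libraries. The 4 seeds differ from each other.

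miR-199a-5p: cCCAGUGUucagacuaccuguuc
miR-199a-3p: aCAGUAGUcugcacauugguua
miR-214-5p: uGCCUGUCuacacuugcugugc
miR-214-3p: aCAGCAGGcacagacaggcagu

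The start window of Dnm3os, at chr1:162217373-162217672 on the plus strand of GRCm38.p6, begins 250 bases before the start that RefSeq and the tables share. Capitals mark the 3 matches to CANNTG, the E-box bound by bHLH factors, read on both strands of this palindromic pattern. Such a match was found in 72.3% of all 32851 windows and in 56 of the 81 member windows (69.1%), so that a match here is common.

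Dnm3os: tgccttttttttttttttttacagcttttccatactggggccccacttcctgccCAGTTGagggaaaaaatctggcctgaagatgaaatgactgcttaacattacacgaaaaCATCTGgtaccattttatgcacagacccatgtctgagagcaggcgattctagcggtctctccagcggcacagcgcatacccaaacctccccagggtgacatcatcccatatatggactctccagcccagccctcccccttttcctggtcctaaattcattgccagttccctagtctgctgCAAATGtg

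Hoxa11os rose from 2.94 ± 2.26 TPM (SD, n = 3) to 60.3 ± 4.22 TPM (SD, n = 4) in WT, by 4.10 ± 0.30 on the log2 scale (adjusted p = 5.95e-05), and by 6.58 ± 0.21 in Gli3-/- (adjusted p = 4.57e-08). Hoxa11 rose by 3.26 ± 0.23 in WT, and the ratio of Hoxa11os to Hoxa11 rose by 0.84 ± 0.22 (adjusted p = 0.0199). The call of the ratio was lost without E10.5 WT replicate 4 (0.79, adjusted p = 0.0575). Without the library with the label E9.25 WT replicate 2, Hoxa11os rose by 3.92 in WT and the ratio by 0.57 (adjusted p = 0.0227).

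Of the 31 RNAs called in WT, 17 had a partner that moved the same way, 11 a partner that was not called, and 3 a partner that moved the opposite way. Of the 20 member pairs with both genes called, 17 (85%) thus had the same direction. Among all 1406 opposite-strand pairs in the tables with both genes called, 1034 (73.5%) did. The 3 opposite pairs were Nr6a1os, Lrp8os2 and Epb41l4aos.

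Nr6a1os, on chr2:38823257-38852370 on the plus strand, lies inside Nr6a1, which encodes a nuclear receptor of early embryos that is shut off as development goes on. Its TPM was 1.27, 0.157 and 1.32 in E9.25 WT and 5.46, 7.69, 7.09 and 7.49 in E10.5 WT. In Gli3-/- it was 1.93, 1.89, 1.70 and 2.22 at E9.25 and 8.26, 12.8 and 12.3 at E10.5. Nr6a1os rose by 2.11 ± 0.26 in WT (adjusted p = 0.000586) and by 2.02 ± 0.17 in Gli3-/- (adjusted p = 2.29e-05). Nr6a1 had a TPM of 40.4, 21.7 and 35.7 in E9.25 WT and of 5.58, 5.35, 4.45 and 4.85 in E10.5 WT, and fell by 2.43 ± 0.21 (adjusted p = 0.000112). The order of the pair turned over, from the gene far above the RNA to the RNA above the gene, and the ratio rose by 4.54 ± 0.19 (adjusted p = 1.55e-05), or by 4.47 without the library with the label E9.25 WT replicate 2.

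Lrp8os2, inside the lipoprotein receptor gene Lrp8, went the other way. Its TPM was 10.3, 8.60 and 5.38 in E9.25 WT and 2.88, 3.25, 2.52 and 3.75 in E10.5 WT (log2 change -1.12 ± 0.22, adjusted p = 0.00441), while Lrp8 rose by 0.84 ± 0.25 (adjusted p = 0.0226). The call of Lrp8 was lost without E10.5 WT replicate 1, 3 or 4 (adjusted p = 0.0544 to 0.0576), with size factors (0.53, adjusted p = 0.0545) and with quantile normalization (0.37, adjusted p = 0.114), and its rise was 0.52 without the library with the label E9.25 WT replicate 2 (adjusted p = 0.0198). Epb41l4aos fell from 80.9 ± 8.75 to 41.6 ± 4.11 TPM (SD, n = 3 and 4), by 0.94 ± 0.11 on the log2 scale (adjusted p = 0.000498), while Epb41l4a rose by 0.91 ± 0.17 (adjusted p = 0.00405), a call lost with quantile normalization (0.38, adjusted p = 0.0637). Both RNAs also fell in Gli3-/-, Lrp8os2 by 1.45 ± 0.18 (adjusted p = 0.000280) and Epb41l4aos by 0.65 ± 0.12 (adjusted p = 0.00391).

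**Figure D4:**
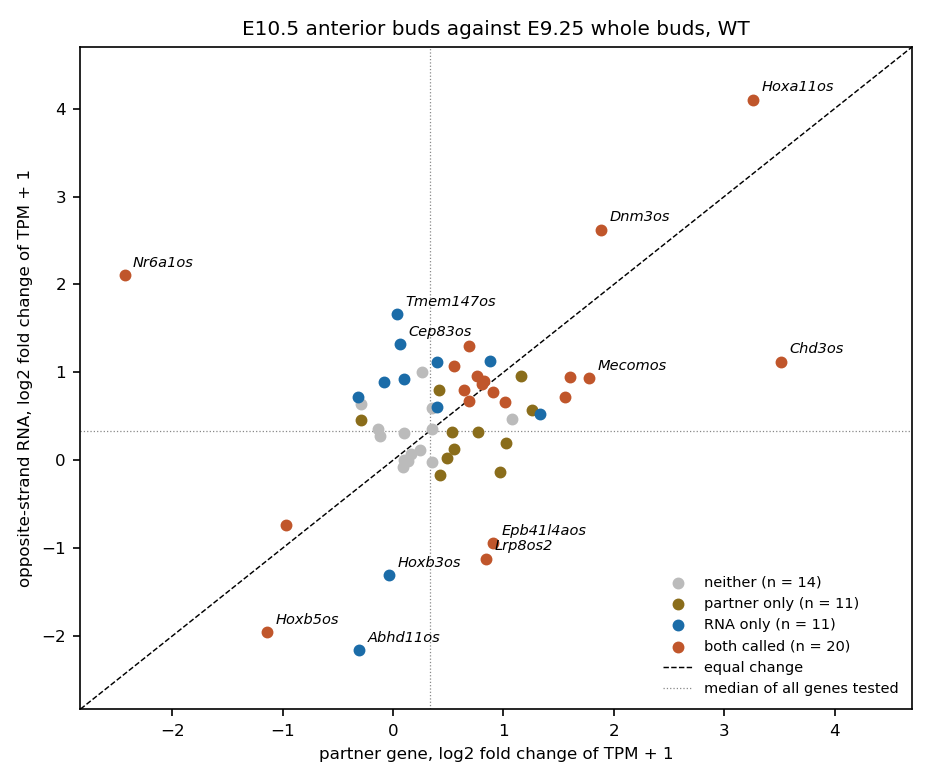
Log2 fold change of TPM plus 1 in E10.5 anterior against E9.25 whole WT buds for 56 opposite-strand RNAs (vertical axis) and their partners (horizontal axis), coloured by which of the pair was called. Nr6a1os lies in the upper left at a partner change of -2.43, Hoxa11os in the upper right, and the dotted lines mark the median change of all genes (0.34).

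The other 4 members that fell in WT were Abhd11os and 3 RNAs of the HOX clusters. Abhd11os fell from 31.2, 32.0 and 25.5 to 5.87, 5.73, 7.40 and 4.50 TPM (-2.16 ± 0.17, adjusted p = 7.56e-05), while Abhd11 had -0.31 ± 0.16 (adjusted p = 0.126) and the ratio fell by 1.86 ± 0.17 (adjusted p = 0.000343). Hoxb5os fell by 1.95 ± 0.18 (adjusted p = 0.000161), Hoxb3os by 1.31 ± 0.30 (adjusted p = 0.00838) and Hoxd3os1 by 0.74 ± 0.16 (adjusted p = 0.00694). HOXB and 3′ HOXD genes are early, proximal members of their clusters, and Hoxb5 and Hoxd3 fell too, by 1.14 ± 0.32 (adjusted p = 0.0201) and 0.97 ± 0.22 (adjusted p = 0.00883). Hoxb3 had a log2 change of -0.03 ± 0.21, whose sign turned with sample quality weights and without E9.25 WT replicate 1 or E10.5 WT replicate 2. In Gli3-/-, where Hoxb3 fell by 2.54 ± 0.20 (adjusted p = 1.09e-05), Hoxb3os fell by 2.00 ± 0.25 (adjusted p = 0.000317), and Hoxb5os by 3.09 ± 0.25 (adjusted p = 1.38e-05).

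Cep83os and Tmem147os, the divergent RNAs that fell with Gli3 loss, were among those that rose in WT. Cep83os had a TPM of 1.56, 0.710 and 1.45 at E9.25, below all E10.5 WT values, and rose by 1.32 ± 0.20 (adjusted p = 0.00130). Tmem147os had a TPM of 2.93, 0.826 and 1.83 at E9.25 and rose by 1.66 ± 0.25 (adjusted p = 0.00151). Without the library with the label E9.25 WT replicate 2 the rises were 1.14 and 1.37 and both stayed called. Cep83 and Tmem147 had log2 changes of 0.07 ± 0.20 and 0.04 ± 0.08, whose signs turned with quantile normalization or size factors, and the ratios rose by 1.26 ± 0.24 (adjusted p = 0.00557) and 1.62 ± 0.29 (adjusted p = 0.00433). In Gli3-/- neither RNA was called for stage.

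Chd3os rose from 6.80, 6.70 and 6.97 to 15.7, 15.7, 14.0 and 19.3 TPM in WT (1.12 ± 0.14, adjusted p = 0.000576), with E9.25 libraries close together. Its convergent neighbour Chd3, a chromatin remodeler gene, rose by 3.51 ± 0.27 (adjusted p = 7.56e-05), so that the ratio fell by 2.39 ± 0.29 (adjusted p = 0.000870). Among other rises, Brip1os went from 18.2 ± 1.02 to 29.5 ± 1.05 TPM (SD, n = 3 and 4), by 0.67 ± 0.10 (adjusted p = 0.00134). Mypopos, Ino80dos, Far1os, Ube4bos3, Tmem132cos and Mecomos rose by 0.93 to 1.30.

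The stage changes in WT were also computed without the library with the label E9.25 WT replicate 2. There, Dnm3os rose by 2.28, Nr6a1os by 1.78, Chd3os by 1.11, Mypopos by 0.98 and Brip1os by 0.63. Abhd11os then had a log2 change of -2.10, Hoxb5os of -2.08, Hoxb3os of -1.42, Lrp8os2 of -1.06, Epb41l4aos of -0.86 and Hoxd3os1 of -0.68, and these 11 RNAs stayed called. Ino80dos stayed called at 0.71, against 1.13 with that library. Far1os, Ube4bos3, Tmem132cos and Mecomos stayed called at 1.05, 0.77, 0.76 and 0.86. Several of the smaller rises rested on a library. Atad3aos, Ict1os, Kdm6bos, Med9os and Nckap5los lost the call without the library with the label E9.25 WT replicate 2 (adjusted p = 0.0519 to 0.0746). Ccpg1os, Ino80dos, Irx3os, Junos and Med9os lost it without E9.25 WT replicate 3 (adjusted p = 0.0503 to 0.0781). Among members still tested, leaving out E10.5 WT replicates 1, 2, 3 or 4 in turn took the call from 4, 2, 4 and 6 of these same 9. Further called members then fell under the TPM filter of the test, Emx2os, Far1os, Mecomos and Tmem132cos among them. In all, 23, 27, 23 and 19 members were called there. Without E10.5 WT replicate 4, 19 members were called, 13 higher and 6 lower.

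Of 56 member pairs tested for an unequal stage change in WT, 17 were called (30.4%), 6 with the RNA gaining on the partner and 11 with the RNA losing, against 35.5% of 5231 opposite-strand pairs. Without the library with the label E9.25 WT replicate 2, 17 were called as well, but not the same pairs. The ratios of Hoxb5os and Ict1os lost the call there (adjusted p = 0.0871 and 0.110). The ratios of Emx2os to Emx2 and of Mecomos to Mecom fell by 0.65 ± 0.18 (adjusted p = 0.0214) and 0.84 ± 0.22 (adjusted p = 0.0204). With a pseudocount of 0.1 these 2 turned to 0.49 and 0.72 without a call, since both RNAs were near 0 at E9.25.

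In Gli3-/- buds, 16 of 55 members tested (29.1%) were called for stage, 8 in each direction, against 25% of 15434 genes (15.8% higher and 9.17% lower). Without the 4 members that passed the TPM rule at 1 stage alone (Chn1os3, Foxd2os, Lhx1os and Vax2os), 12 of 51 (23.5%) were called. These 12 still hold Hoxa11os and Lrrc75aos2, which passed the filter of this test through 1 stage alone, E10.5 and E9.25. For both, being tested and the direction are not independent. Abhd11os fell by 3.18 ± 0.21 (adjusted p = 4.91e-06). Igf2os fell by 0.59 ± 0.16 (adjusted p = 0.0204) and Lrrc75aos2 by 0.77 ± 0.24 (adjusted p = 0.0367), each while its partner rose, and Nr6a1os was the third opposite pair. For Lrrc75aos2, with a mean log2(TPM + 1) of 0.48 in E10.5 Gli3-/-, the opposite order of the pair is limited by that filter. The calls of Igf2os, Lrrc75aos2 and Mypopos were lost without any of the 3 E10.5 libraries, with adjusted p up to 0.0808, 0.133 and 0.148, and that of Mypopos also without E9.25 Gli3-/- replicate 1 or 3. Without E10.5 Gli3-/- replicate 1, 2 or 3, 9, 9 and 10 members were called.

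**Figure D5:**
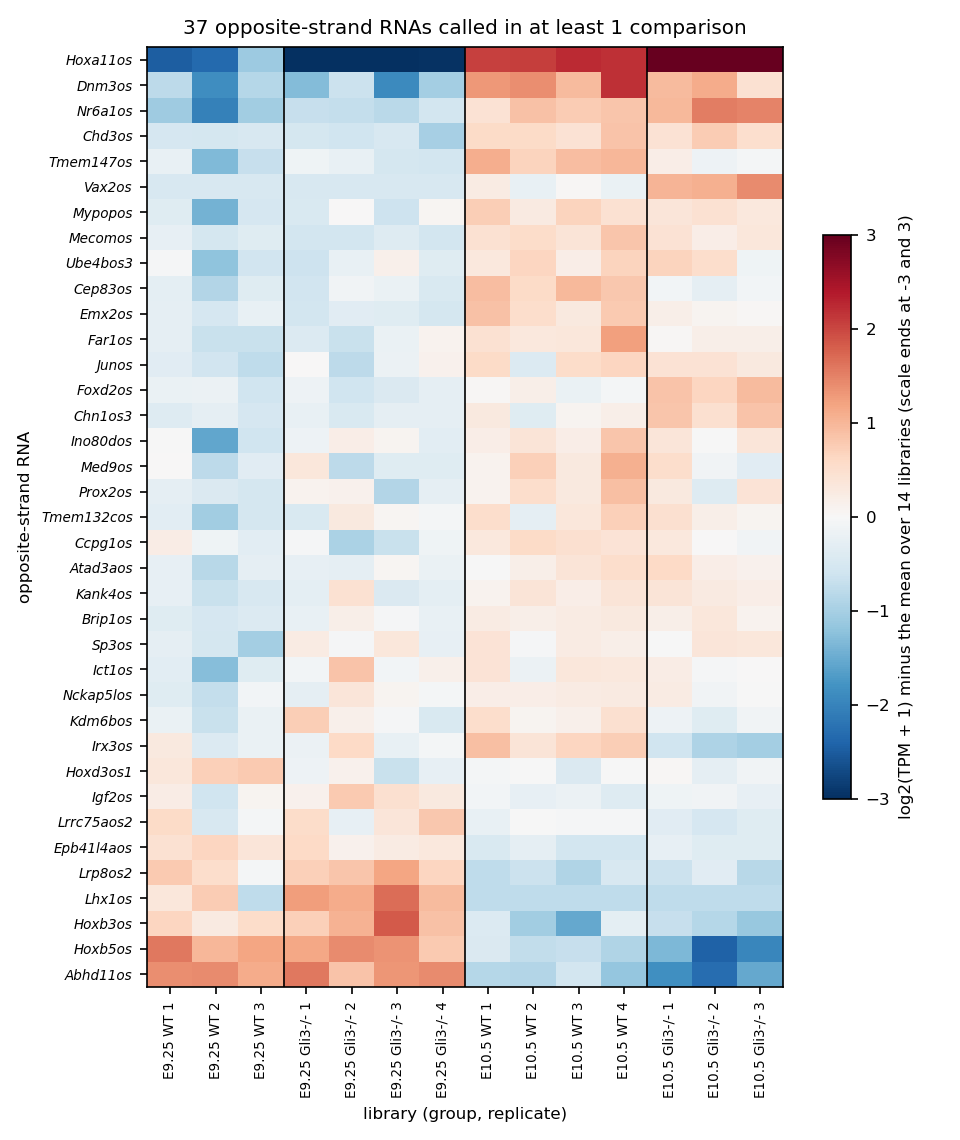
Log2 of TPM plus 1, minus the mean over the 14 libraries, for the 37 opposite-strand RNAs called in at least 1 comparison (rows) in each library (columns, grouped by stage and genotype). Rows are ordered by the difference between the stages, with Hoxa11os at the top and Abhd11os at the bottom, and the scale ends at -3 and 3.

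The partners of 14 members are limb or trunk patterning transcription factors. Among these members, Dlx6os1, Sox6os and Zeb2os had a median TPM of 0.211, 0.489 and 0.487 and were not tested. Tbx3os1, which overlaps the 5′ end of Tbx3, was tested but not called, with a TPM of 0.104 to 1.66 in E9.25 WT and of 1.02 to 2.56 in E10.5 WT (0.64 ± 0.32, adjusted p = 0.127). For Sox6os the partner Sox6 was called for Gli3 loss at E10.5 (-0.86 ± 0.18, adjusted p = 0.0299). Sox6os, under the TPM filter of the test, had a TPM of 0.294, 0, 0.416 and 0.854 in E10.5 WT and of 0.591, 0.717 and 0.563 in E10.5 Gli3-/-, so that the Gli3-/- values lay within the WT range.

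At the edge of the TPM rule, Dlx6os1, Gad1os and Ift88os passed in exactly 3 libraries, with a third-highest TPM of 0.543, 0.563 and 0.502. Another 11 names passed in 2 libraries, among them Tspan32os, whose third-highest TPM was 0.498, and Bcas3os2, at 0.132. In 12 members the passing libraries were all of E10.5, and in 2, Lhx1os and Dhrs13os, all of E9.25. Only 28 of the 97 passed in all 14 libraries.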

How the data were processed

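RNA of pooled forelimb buds (14 libraries) was extracted with TRIzol, made into libraries with the NEBNext Ultra II RNA kit and sequenced as single 100-base reads, which the authors aligned with HISAT2. The authors deposited 1 gene table per library with TPM, FPKM and coverage (signal) per gene and no counts. The kit named is the version without strand marking, and the tool that made these tables is not given in the sources used here. The submitters' notes name the build mm10. Only the deposited TPM values were tested. The deposited coverage and FPKM served to estimate reads per library.

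log2(TPM + 1) was fitted with limma 3.58.1 (R 4.3.3, trend, two-sided) over all genes that reached a TPM of 1 in 3 or more of the compared libraries, with Benjamini-Hochberg adjustment over all genes tested and a threshold of 0.05. Gli3 loss was tested within each stage, stage within each genotype, and their interaction over all 14 libraries. The difference in log2(TPM + 1) between the RNA and its partner was fitted over all opposite-strand pairs within 10 kb. The fit was tested on simulated data first. The study's own analysis used DESeq2 on counts, which were not used here. Replicates are pools of embryos, so that p-values measure the spread between pools. Error values after ± are SE for log2 changes and SD for TPM.

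Named RNAs were those called in any comparison (up to 12 per direction), the 8 of highest median TPM, those whose partner is a listed patterning transcription factor, those at the edge of the TPM rule, and their partners. The members and gene lists were chosen with earlier results of these data known. RefSeq (GRCm38.p6) start windows matched 61 of the 97 members. Alternatives were pseudocount, filter, trend, normalization, quality weights, replicate block, 1 model of all libraries, each library left out, and, added after seeing the data, leaving out the protein-coding members. Figures were drawn with matplotlib 3.10.9. The counts of an HH pathway gene list are not reported here.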

Additional observations from a re-analysis of the deposited data

Results flagged for a closer look

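In groups of 4 libraries, 5 opposite-strand RNAs had 1 library far from the others by Dixon's test at the 95% level, out of 72 groups tested, where chance gives about 1 in 20. Far1os had a TPM of 2.70 in E10.5 WT replicate 4, against 0.958 to 1.16 in the other libraries of that group. Hoxa11os had a TPM of 0.0337 in E9.25 Gli3-/- replicate 3, against 0.652 to 0.775. Hoxd3os1 had a TPM of 11.2 in E10.5 WT replicate 3, against 14.7 to 15.3. Irx3os had a TPM of 2.06 in E9.25 Gli3-/- replicate 2, against 0.738 to 0.958. Lrrc75aos2 had a TPM of 0.568 in E10.5 WT replicate 1, against 0.796 to 0.824.

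The effect of Gli3 loss differed between E10.5 anterior buds and E9.25 whole buds for 5 of the 71 RNAs tested, by limma's test of the interaction. The effect at E10.5 minus that at E9.25 was 2.47 for Hoxa11os, 1.20 for Vax2os, -1.66 for Irx3os, -1.13 for Cep83os and -1.31 for Tmem147os on the log2 scale. Vax2os passed the TPM filter only through the E10.5 Gli3-/- libraries, so that its direction follows from the filter. The calls of Cep83os and Tmem147os were lost without the library with the label E9.25 WT replicate 2.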

How the results depend on the processing

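With 1 model of all 14 libraries, 4 of 47 members were called for Gli3 loss at E9.25, 2 in each direction, beside 1185 of all 14760 genes, against 0 members and 20 genes in the comparison of the 2 groups. With a TPM minimum of 5, the members called were 3 for Gli3 loss at E10.5, 14 for stage in WT, 10 for stage in Gli3-/- and 1 for the interaction, and the pair ratios called were 10 for stage in WT and 2 for Gli3 loss at E10.5, with fewer RNAs tested. Sample quality weights gave 25 for stage in Gli3-/- and 8 for the interaction. The interaction gave 2 with a pseudocount of 0.1 and 3 with no filter. Quantile normalization gave 21 for stage in WT, 11 higher and 10 lower, and size factors 28, 21 higher and 7 lower. Restricting the ratios to overlapping pairs gave 11 for stage in WT and 2 for Gli3 loss at E10.5. Where no cause is given, the cause was not tested. With each library left out in turn, the members called were 0 to 0 for Gli3 loss at E9.25, 5 to 8 at E10.5, 19 to 34 for stage in WT, 9 to 17 for stage in Gli3-/- and 1 to 8 for the interaction, and the pair ratios called were 11 to 19 for stage in WT and 2 to 4 for Gli3 loss at E10.5. With the replicate block, the calls were 0 at E9.25, 3 at E10.5, 22 for stage in WT, 19 for stage in Gli3-/-, 0 for the interaction, and 12 and 0 for the ratios. Same-numbered libraries did not deviate together (mean r of -0.18 to 0.04 over the comparisons). That gave no sign of a pairing by number, but with few such library pairs per comparison it cannot exclude one. Without the protein-coding members, an alternative chosen after seeing the data, 0, 8, 30, 16 and 5 were called. Of 977 alternative values of called members, 851 stayed called, 126 lost the call and 0 changed direction. Alternatives in which a called member fell under the TPM filter and was not tested are not among the 977.

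Directions turned in uncalled partners and in 3 ratios. For stage in WT, Cep83 was at -0.23 with quantile normalization, -0.29 with size factors, -0.25 with quality weights, -0.0090 with the replicate block and without E10.5 WT replicate 4, and from -0.13 to 0.26 with each library left out, lowest without E9.25 WT replicate 2. Hoxb3 was at 0.099 with quality weights, 0.18 without E9.25 WT replicate 1 and 0.11 without E10.5 WT replicate 2. Med9 was at -0.19 with quantile normalization and -0.25 with size factors, Nckap5l at -0.0076 with quantile normalization, and Tmem147 at -0.049 with quantile normalization, -0.32 with size factors and from -0.0062 (without E9.25 WT replicate 1) to 0.084 with each library left out. For the interaction, Cep83 was at -0.030 (without E9.25 WT replicate 3) to 0.36 with each library left out, and Tmem147 at 0.0048 with quantile normalization and 0.19 with size factors. With a pseudocount of 0.1 the ratios were 0.49 for Emx2os, 0.72 for Mecomos and -0.20 for Irx3os. RNAs under a TPM of 1 rest on at most 29.3 reads per kilobase, which limits what could be detected.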
